A study of Mus musculus with 8 samples.

Results

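The liver genes of bile acid metabolism were followed in mouse mothers and their fetuses under maternal food restriction (FR). They were 10 genes: Cyp7a1, Cyp7b1, Cyp8b1 and Cyp27a1 of synthesis, Baat and Slc27a5 of conjugation, Abcb11 and Slc10a1 of transport, and Nr0b2 and Fgfr4 of feedback. They were chosen by name from the pathway, and every probe of the array that carries one of these names was kept apart. This gave 14 probes among 41174, for 10 of the 28146 gene names of the array. The animals were C57BL/6J mice. FR mothers received 50% of the chow eaten by controls from gestation day 10 to 17, while control mothers ate freely, and livers were taken on gestation day 18. Maternal liver came as 1 FR pool and 1 control pool of 6 mothers each. Male fetal liver came as 1 FR and 1 control pool of 6 fetuses, and as 2 FR and 2 control pools of 3 fetuses. There were 6 mothers per diet, and 2 male fetuses were taken per mother. The labels do not say whether fetal pools share litters or fetuses. Each array held an FR pool and its control pool together, and a repeat array exchanged their dyes, so 8 arrays measured 4 pool pairs. P-values over the fetal pairs measure the spread between pools, which are not fully independent, and the single maternal pair allows no test.

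Bile acids are made from cholesterol in hepatocytes. CYP7A1 catalyses the rate-limiting step of the classic route, CYP27A1 and CYP7B1 serve the alternative route, and CYP8B1 adds the hydroxyl group that makes cholic acid. The acids are activated by the ligase encoded by Slc27a5, joined to taurine or glycine by BAAT, exported into bile by ABCB11 and taken back from portal blood by SLC10A1. Bile acids repress their own synthesis through the nuclear receptor FXR, which induces the repressor SHP (Nr0b2) in liver, and through the intestinal hormone FGF15, which acts on FGFR4 and its partner beta-Klotho. In mice this system is still maturing in the liver at the end of gestation, when that organ also makes blood cells.

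On each of the 8 arrays all 14 probes exceeded background clearly in Cy3 and in Cy5, and none was saturated. The median spot intensity per array was 70 to 284 in Cy3 and 122 to 310 in Cy5, over a local background of 46 to 68. The log2 FR responses of the 3 fetal pairs correlated at 0.73 to 0.82 across probes, which are not independent replicates. The mothers and the fetal pools of 6 were on slide 1 and the fetal pools of 3 on slide 2. On slide 1 the scanner software marked 11.8% to 19.7% of spots as non-uniform in Cy3, and these were kept. As a check of tissue and age, the hepatocyte gene Alb was at 17.2 in the maternal control pool and averaged 17.5 in the fetal control pools on the log2 scale, and the fetal liver protein gene Afp was at 7.85 in the maternal control pool and averaged 17.1 in the fetal ones.

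In maternal liver, Abcb11 was the one gene of the 10 that was more than 2-fold lower on both arrays, where 1.01% of 29098 probes measured were. None was 2-fold higher on both, where 0.976% of probes were. The values of 11 of the 14 probes lay below 0 on both maternal arrays, against 34% of all probes, with a median of -0.36 for the 14 probes and 0.0032 for all. That count rested on the processing: without loess 0 of the 14 lay below 0 on both (9.72% of all probes) and the arrays opposed each other for all 14, and in the deposited ratios 9 did (30.1% of all probes). In fetal liver, 2 of the 10 genes changed. Cyp8b1 and both probes of Baat fell under FR (limma across all probes, Benjamini-Hochberg adjusted p under 0.05), which made 3 of 14 probes called lower, where 13.7% of 32113 probes tested were lower. No bile acid probe was called higher by limma, where 10.5% of all probes were, although 3 had an unadjusted p under 0.05 above 0. The median response of the 14 probes was -0.08 on the log2 scale, against 0.0048 over all probes tested. The ratio was below 0 in all 3 pairs for 3 probes, where 30.8% of probes tested were. The FR and control levels of the fetal pools did not overlap for the same 3 lower probes (11.7% of all probes had such a split) and for 2 higher ones, of Cyp27a1 and Fgfr4 (8.71% of all probes).

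**Figure D1:**
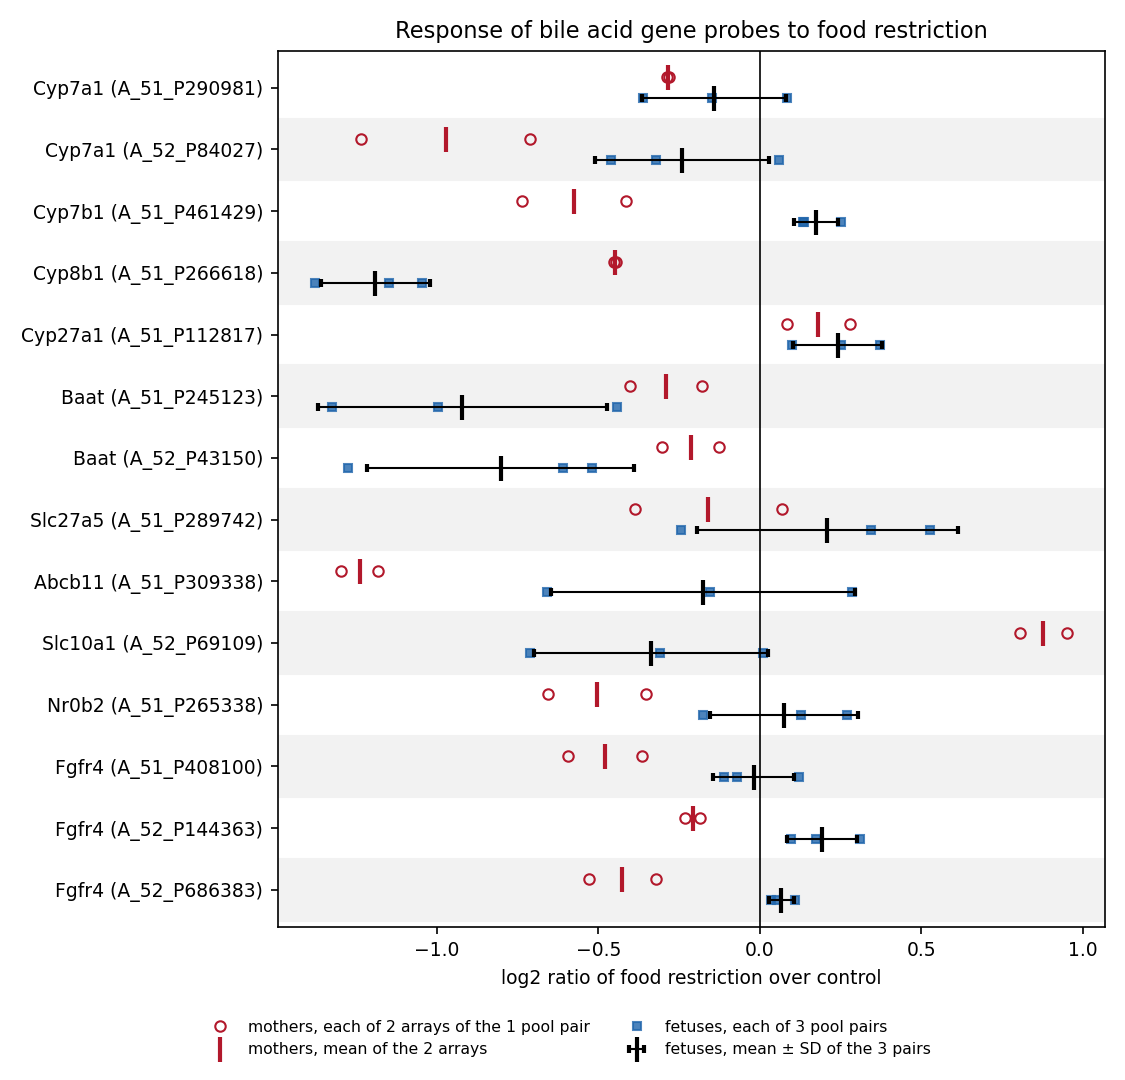
Log2 ratio of food restriction over control (x axis) for each of the 14 probes (rows). Open circles are the 2 dye-swapped arrays of the maternal pool pair with their mean as a red bar, squares are the 3 fetal pool pairs, and black bars are the fetal mean with its SD. Cyp8b1 and Baat lie below 0 in all 3 fetal pairs, whereas Abcb11 is lowest and Slc10a1 highest in the mothers.

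Cyp8b1, the sterol 12-alpha-hydroxylase gene, was the most changed of the 10 in fetal liver. Its probe was A_51_P266618 (chr9:121824595-121824654, minus strand, build mm9). In mothers the log2 level was 10.84 in the FR pool and 11.29 in the control pool, a ratio of -0.45 on both arrays. In fetuses the probe had log2 levels of 8.33, 8.65 and 8.84 in FR fetal pools, against 9.48, 10.02 and 9.88 in control fetal pools. Each FR pool lay below each control pool. The log2 ratio was -1.15 in the pools of 6 and -1.38 and -1.05 in the pools of 3, a mean of -1.19 ± 0.17 (SD, n = 3), or 2.28-fold lower under FR (limma adjusted p = 0.00473). All 6 fetal arrays were below 0. Fetal ratios are given throughout as mean ± SD of the 3 pairs. The fetal call held under every alternative run, with values of -1.36 to -1.10 and adjusted p of 0.000824 to 0.0480. Whether a lower value means fewer cells of a type or less RNA per cell cannot be told apart in whole liver.

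The promoter of Cyp8b1 is shown because it is the gene with the firmest change, and because 2 nuclear receptors known to bind it, HNF4A and LRH-1 (Nr5a2), were measured. Printed are the 250 bases before the annotated start (RefSeq, GRCm38, chr9:121916306-121916555, minus strand, 5′ to 3′).
Cyp8b1 promoter: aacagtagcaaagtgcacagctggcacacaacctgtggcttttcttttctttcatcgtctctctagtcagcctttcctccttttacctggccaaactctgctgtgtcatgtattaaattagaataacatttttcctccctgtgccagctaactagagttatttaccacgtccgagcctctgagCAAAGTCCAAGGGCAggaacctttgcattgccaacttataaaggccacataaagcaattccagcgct
Capitals mark an HNF4-type string, CAAAGTCCA, at -67 to -59 from the start and an overlapping LRH-1-type string, CAAGGNCA, at -60 to -53. On either strand the first occurs in 0.384% and the second in 5.53% of 32851 RefSeq windows of this length. A match is a string of letters and was not tested as a binding site. On the maternal arrays Nr5a2 had -0.61 and 0.03, which differ in sign, and Hnf4a had 0.06 and 0.41. In fetal liver Nr5a2 fell by 0.33 ± 0.19 on the log2 scale (SD, n = 3; limma adjusted p = 0.0428), with -0.41, -0.47 and -0.11 in the 3 pairs. Hnf4a had 0.21 ± 0.12 (adjusted p = 0.0651).

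Cyp7a1, the gene of the rate-limiting enzyme, did not pass the test in fetal liver by either of its probes, and in mothers the probes disagreed in size. On the maternal arrays A_51_P290981 had -0.29 and -0.28, with levels of 10.77 in the FR pool and 11.05 in the control pool, while A_52_P84027 had -1.24 and -0.71, with 12.94 and 13.92 in the FR and control pools. Probe A_51_P290981 had levels of 8.91, 8.64 and 8.79 in FR fetal pools, against 9.05, 8.997 and 8.70 in control fetal pools. These overlap, with a mean log2 ratio of -0.14 ± 0.22 (adjusted p = 0.310). Probe A_52_P84027 had 11.63, 11.24 and 11.28 in FR fetal pools, against 11.96, 11.71 and 11.22 in control fetal pools, and a mean ratio of -0.24 ± 0.27 (adjusted p = 0.161). Its pools overlap too, and the pair of pools of 3 that went the other way decided the result. Without that pair the ratio was -0.39 (adjusted p = 0.0189, range over the alternatives 0.0189 to 0.502). The first probe is printed to show what was measured; it lies on the minus strand of chromosome 4 and spans chr4:6195632-6196238 in mm9, which is 607 bases of genome for 60 bases of probe, so it aligns in more than 1 block.
Cyp7a1 A_51_P290981: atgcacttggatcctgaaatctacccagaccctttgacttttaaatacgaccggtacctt
The second lies at chr4:6193456-6193515 and was flagged as non-uniform on 3 arrays, the first on none.

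The alternative route had small values in fetal liver. Cyp27a1, the mitochondrial sterol 27-hydroxylase gene, had 0.08 and 0.28 on the maternal arrays. In fetuses it had levels of 8.93, 8.96 and 9.06 in FR fetal pools, against 8.55, 8.87 and 8.81 in control fetal pools. The FR pools were all higher, but the mean log2 ratio of 0.24 ± 0.14 missed the threshold (adjusted p = 0.0533). It passed without the first pair of pools of 3 (0.31, adjusted p = 0.0499) and with the median spot signal on both slides (0.22, adjusted p = 0.0460), with a range of 0.0460 to 0.280 over the alternatives. Cyp7b1, the oxysterol 7-alpha-hydroxylase gene, was lower on both maternal arrays, at -0.74 and -0.41, with a level of 11.91 in the FR pool and 12.49 in the control pool. Without loess the arrays opposed each other, at 0.32 and -1.42. In fetuses it had 7.202, 7.22 and 7.06 in FR fetal pools, against 7.06, 7.09 and 6.81 in control fetal pools, a mean ratio of 0.17 ± 0.07 (adjusted p = 0.0586). With a background offset of 10 the fetal value of Cyp7b1 passed at 0.24 (adjusted p = 0.0417), in the deposited ratios at 0.39 (adjusted p = 0.0177), and with the median spot signal at 0.18 (adjusted p = 0.0466). The range over the alternatives was 0.0177 to 0.194. The fetal levels of Cyp7b1 were dim, though well above background on all 8 arrays, and the size of its fetal ratio depended on the processing.

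Of the 10 genes, Slc10a1 (1.21) and Abcb11 (-1.06) had the largest log2 differences in response, mothers minus fetuses. Cyp7b1 was the one gene of the 10 whose difference passed the limma threshold. The maternal response minus the fetal one was -0.75 ± 0.10 on the log2 scale (SE; limma with the lone maternal pair assumed to vary like the fetal pairs, adjusted p = 0.0325). Of 28517 probes tested, 3.04% differed, and 1.54% were lower in mothers. The call was lost without the fetal pools of 6 (-0.77, adjusted p = 0.138), without the first pair of pools of 3 (-0.77, adjusted p = 0.0503), without loess (-0.79, adjusted p = 0.119) and with slide as a term (-0.71, adjusted p = 0.250). Its adjusted p ran from 0.0216 to 0.250 over the alternatives. For Cyp8b1 the difference was 0.74, the fetal fall being the larger, and it missed the threshold (adjusted p = 0.0742, 95% interval 0.36 to 1.12 before adjustment). Slc10a1 differed by 1.21 (adjusted p = 0.0935, interval 0.52 to 1.91). Both passed without the second pair of pools of 3, Cyp8b1 at 0.81 (adjusted p = 0.0460, range over the alternatives 0.0460 to 0.360) and Slc10a1 at 1.39 (adjusted p = 0.0260, range 0.0260 to 0.389). The remaining probes had adjusted p of 0.0643 to 0.861.

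Baat, which encodes the enzyme that joins bile acids to taurine or glycine, fell in fetal liver by both probes. The maternal arrays had -0.40 and -0.18 by probe A_51_P245123 and -0.30 and -0.13 by probe A_52_P43150. In fetuses, probe A_51_P245123 had log2 levels of 9.68, 9.17 and 9.90 in FR fetal pools, against 10.67, 10.50 and 10.34 in control fetal pools. Probe A_52_P43150 had 8.06, 7.30 and 7.76 in FR fetal pools, against 8.67, 8.57 and 8.28 in control fetal pools. Neither pair of groups overlapped. The first probe had log2 ratios of -0.996, -1.33 and -0.44, a mean of -0.92 ± 0.45, or 1.89-fold lower (adjusted p = 0.0196). The second had -0.61, -1.28 and -0.52, a mean of -0.80 ± 0.41, or 1.74-fold lower (adjusted p = 0.0230). Both calls were lost without the fetal pools of 6 (adjusted p = 0.0984 and 0.0778) and with slide as a term (0.0628 and 0.0710), and that of the first probe also without the first pair of pools of 3 (0.0514). Over the alternatives the values were -1.16 to -0.72 for the first probe (adjusted p 0.00405 to 0.0984) and -1.09 to -0.57 for the second (0.00562 to 0.0778). The listed position of the first probe, chr4:49502275-49502286 in mm9, spans 12 bases and so does not cover its 60 bases. The second probe, at chr4:49502933-49502992 on the minus strand in mm9, is printed because its 60 bases map without a gap.
Baat A_52_P43150: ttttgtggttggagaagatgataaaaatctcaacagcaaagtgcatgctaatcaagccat

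Slc27a5, the gene of the bile acid-CoA ligase that acts just before BAAT, did not follow it. The maternal arrays had 0.07 and -0.39, which disagree in sign. In fetuses its levels were 13.21, 12.59 and 13.14 in FR fetal pools, against 12.86, 12.84 and 12.61 in control fetal pools. These overlap, with a mean log2 ratio of 0.21 ± 0.40 (adjusted p = 0.368). The 3 pairs had 0.34, -0.25 and 0.53. Without the first pair of pools of 3 the value was 0.44 (adjusted p = 0.0355, range over the alternatives 0.0355 to 0.853), so that pair decided the call.

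Abcb11, the gene of the bile salt export pump, was lower in FR mothers. The FR maternal pool had a log2 level of 13.90, against 15.14 in the control maternal pool. The ratio was -1.18 and -1.30 on the 2 arrays, a mean of -1.24, or 2.36-fold lower under FR. The FR maternal pool stood 0.37 above the mean of the FR fetal pools, where the control maternal pool stood 1.43 above the mean of the control fetal pools. This is 1 pool of 6 mothers per diet with no test. The probe was flagged as non-uniform on all 4 arrays of slide 1. Without loess the 2 maternal arrays had 0.26 and -2.55, and in the deposited ratios -0.24 and -2.17, so the arrays disagreed there while their means stayed at -1.14 and -1.20. In fetal liver Abcb11 had levels of 13.79, 13.11 and 13.71 in FR pools, against 13.95, 13.76 and 13.42 in control pools. The fetal groups overlapped, at -0.18 ± 0.47 (adjusted p = 0.508), and the value was 0.06 without the first pair of pools of 3.

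The Abcb11 promoter is printed because this gene is a known target of FXR, whose gene Nr1h4 was also measured (RefSeq, GRCm38, chr2:69342617-69342866, minus strand, 5′ to 3′).
Abcb11 promoter: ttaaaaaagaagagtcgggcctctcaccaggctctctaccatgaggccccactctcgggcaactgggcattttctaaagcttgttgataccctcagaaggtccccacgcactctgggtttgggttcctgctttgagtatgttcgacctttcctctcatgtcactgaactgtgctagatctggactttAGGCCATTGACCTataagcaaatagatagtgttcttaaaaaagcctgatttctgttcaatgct
Capitals mark an inverted repeat, the half-sites AGGNCA and TGACCT with 1 base between them, at -63 to -51, the kind of element that FXR binds with RXR. This string is in 0.0335% of the RefSeq windows, or 11 of 32851. Nr1h4 had 1.098 and 0.82 on the maternal arrays and -0.06 ± 0.33 in fetal liver (adjusted p = 0.760).

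Slc10a1, the gene of the sodium-dependent bile acid uptake carrier, was the highest of the 10 in FR mothers. Its level was 14.59 in the FR maternal pool, against 13.71 in the control maternal pool. The 2 arrays had 0.95 and 0.80, a mean of 0.88, or 1.84-fold higher, short of the 2-fold mark. Without loess the arrays had 2.31 and -0.42, and in the deposited ratios 1.71 and 0.05, with means of 0.95 and 0.88. In fetal liver it had 13.60, 12.41 and 13.14 in FR pools, against 13.91, 13.12 and 13.13 in control pools. The ratios of -0.31, -0.71 and 0.01 gave a mean of -0.34 ± 0.36 (adjusted p = 0.138). Without the second pair of pools of 3, the value was -0.51 (adjusted p = 0.0299, range over the alternatives 0.0299 to 0.388).

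Nr0b2, the gene of the feedback repressor SHP, had -0.35 and -0.66 on the maternal arrays, with levels of 9.28 in the FR pool and 9.79 in the control pool. In fetuses the levels were 7.31, 7.21 and 7.54 in FR fetal pools, against 7.18, 7.39 and 7.27 in control fetal pools. These overlap, at 0.07 ± 0.23 (adjusted p = 0.605), and the value was -0.03 without the second pair of pools of 3. The fetal levels of Nr0b2 were dim, and its ratio was 0.09 with a background offset of 10 and 0.15 in the deposited ratios. Its promoter is shown as that of the repressor of the pathway, a known target of both FXR and LRH-1 (RefSeq, GRCm38, chr4:133553126-133553375, plus strand).
Nr0b2 promoter: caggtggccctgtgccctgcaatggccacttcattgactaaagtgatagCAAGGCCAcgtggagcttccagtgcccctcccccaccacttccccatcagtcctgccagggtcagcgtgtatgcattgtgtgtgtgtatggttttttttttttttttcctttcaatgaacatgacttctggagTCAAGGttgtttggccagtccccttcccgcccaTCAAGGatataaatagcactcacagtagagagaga
Capitals mark the LRH-1-type string CAAGGNCA at -201 to -194 and its shorter core TCAAGG at -68 to -63 and at -35 to -30. The core occurs in 12.5% of the windows. The inverted repeat of the Abcb11 window and the HNF4-type string are not among the letters of this window. Of the 10 genes, 6 had promoter windows, 7 windows in all, and Cyp8b1, Abcb11 and Nr0b2 were the genes with a match. The motifs were chosen after the sequences had been seen.

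**Figure D2:**
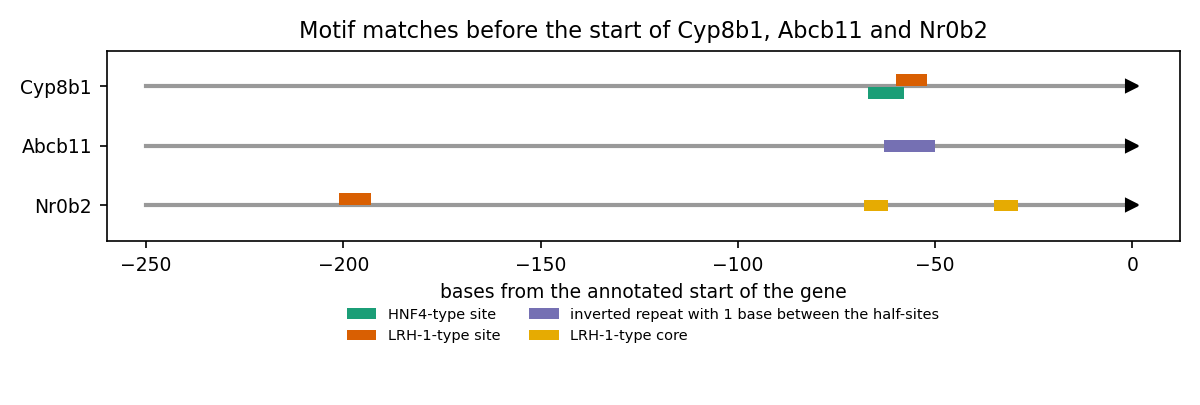
Positions of the motif matches in bases before the annotated gene start (x axis; the arrowhead is the start) for Cyp8b1, Abcb11 and Nr0b2. The HNF4-type and LRH-1-type matches of Cyp8b1 (-67 to -53) and the inverted repeat of Abcb11 (-63 to -51) lie at similar distances from the start.

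Fgfr4, the gene of the receptor for FGF15, had 3 probes. All 3 lay below 0 on both maternal arrays, at -0.59 and -0.37 (A_51_P408100), -0.19 and -0.23 (A_52_P144363), and -0.53 and -0.32 (A_52_P686383). In fetal liver none passed the limma test, and A_52_P144363 had an unadjusted p of 0.0198. Probe A_51_P408100 had levels of 10.38, 10.51 and 10.79 in FR fetal pools, against 10.45, 10.62 and 10.67 in control fetal pools (-0.02 ± 0.12, adjusted p = 0.844). Probe A_52_P144363 had 9.48, 9.93 and 9.80 in FR fetal pools, against 9.31, 9.62 and 9.70 in control fetal pools (0.19 ± 0.11, adjusted p = 0.0680). Probe A_52_P686383 had 8.31, 8.36 and 8.33 in FR fetal pools, against 8.28, 8.30 and 8.22 in control fetal pools (0.07 ± 0.04, adjusted p = 0.335). The groups overlap for the first pair of probes and not for the third, where the gap is small. Some of the probe sequences are shown because the probes disagree on the level in mothers against fetuses. In mm9 A_52_P686383 lies at chr13:55269225-55269284 and A_52_P144363 at chr13:55269360-55269419, both on the plus strand, and A_51_P408100 follows at chr13:55269977-55270036.
Fgfr4 A_52_P686383: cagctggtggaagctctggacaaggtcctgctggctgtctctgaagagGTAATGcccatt
Fgfr4 A_52_P144363: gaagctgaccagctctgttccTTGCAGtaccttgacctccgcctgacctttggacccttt
Capitals mark letters of the kind found at the start of an intron (bases 49 to 54 of the first) and at the end of one (bases 22 to 27 of the second). No transcript model of this build was used, and whether these probes read spliced RNA was not tested.

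Control mothers had higher levels than control fetuses for most of the pathway. Of the 14 probes, 12 were higher in mothers (limma adjusted p under 0.05), where 16.5% of 30543 probes tested were, and none was lower by limma, where 15.6% were, although 1 had an unadjusted p under 0.05. The median difference was 2.21 on the log2 scale for the 14 probes and 0.009 for all probes tested. As only 1 maternal control pool was measured, it was assumed to vary like the 3 fetal pools. The difference was widest for Cyp7b1, with 12.49 in control mothers, against 7.06, 7.09 and 6.81 in control fetuses, or 45.2-fold (adjusted p = 9.06e-05). Baat followed with 14.04 in control mothers and a mean of 10.50 ± 0.17 in control fetuses (11.6-fold, adjusted p = 0.000323), and 12.7-fold by its second probe. Slc27a5 had 16.03 in control mothers and 12.77 ± 0.14 in control fetuses, or 9.55-fold. Those 3 genes were the farthest apart, and Cyp7b1 was dim in fetal liver. The size of these folds depended on the offset and the scaling: that of Cyp7b1 was 68.7 with a background offset of 10 and 155.1 with processed signals, and with processed signals those of Baat were 18.5 and 21.6.

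Smaller differences of the same direction were found in the other genes. Cyp27a1 was 6.495-fold, Nr0b2 5.70-fold and Cyp7a1 4.40-fold and 4.89-fold higher in control mothers. With processed signals Nr0b2 had 11.3-fold, the second probe of Cyp7a1 8.60-fold and Abcb11 4.27-fold. Cyp8b1 had 11.29 in control mothers and 9.80 ± 0.28 in control fetuses (2.82-fold, adjusted p = 0.00959), and Abcb11 had 15.14 in control mothers and 13.71 ± 0.27 in control fetuses (2.69-fold, adjusted p = 0.0101). The exceptions were Slc10a1 and 1 probe of Fgfr4. Slc10a1 had 13.71 in control mothers and 13.39 ± 0.45 in control fetuses, a difference of 0.32 (adjusted p = 0.540, 95% interval -0.58 to 1.22), and on slide 1 alone the sign turned, at -0.20, while processed signals gave 1.16. Fgfr4 was 2.78-fold higher in control mothers by A_51_P408100 and 2.29-fold by A_52_P686383, while A_52_P144363 had 9.003 in control mothers and 9.54 ± 0.21 in control fetuses (-0.54, adjusted p = 0.108; unadjusted p = 0.0458). Without the fetal pools of 6, which are the ones on the mothers' slide, all 14 probes passed, as did 51.3% of all probes.

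**Figure D3:**
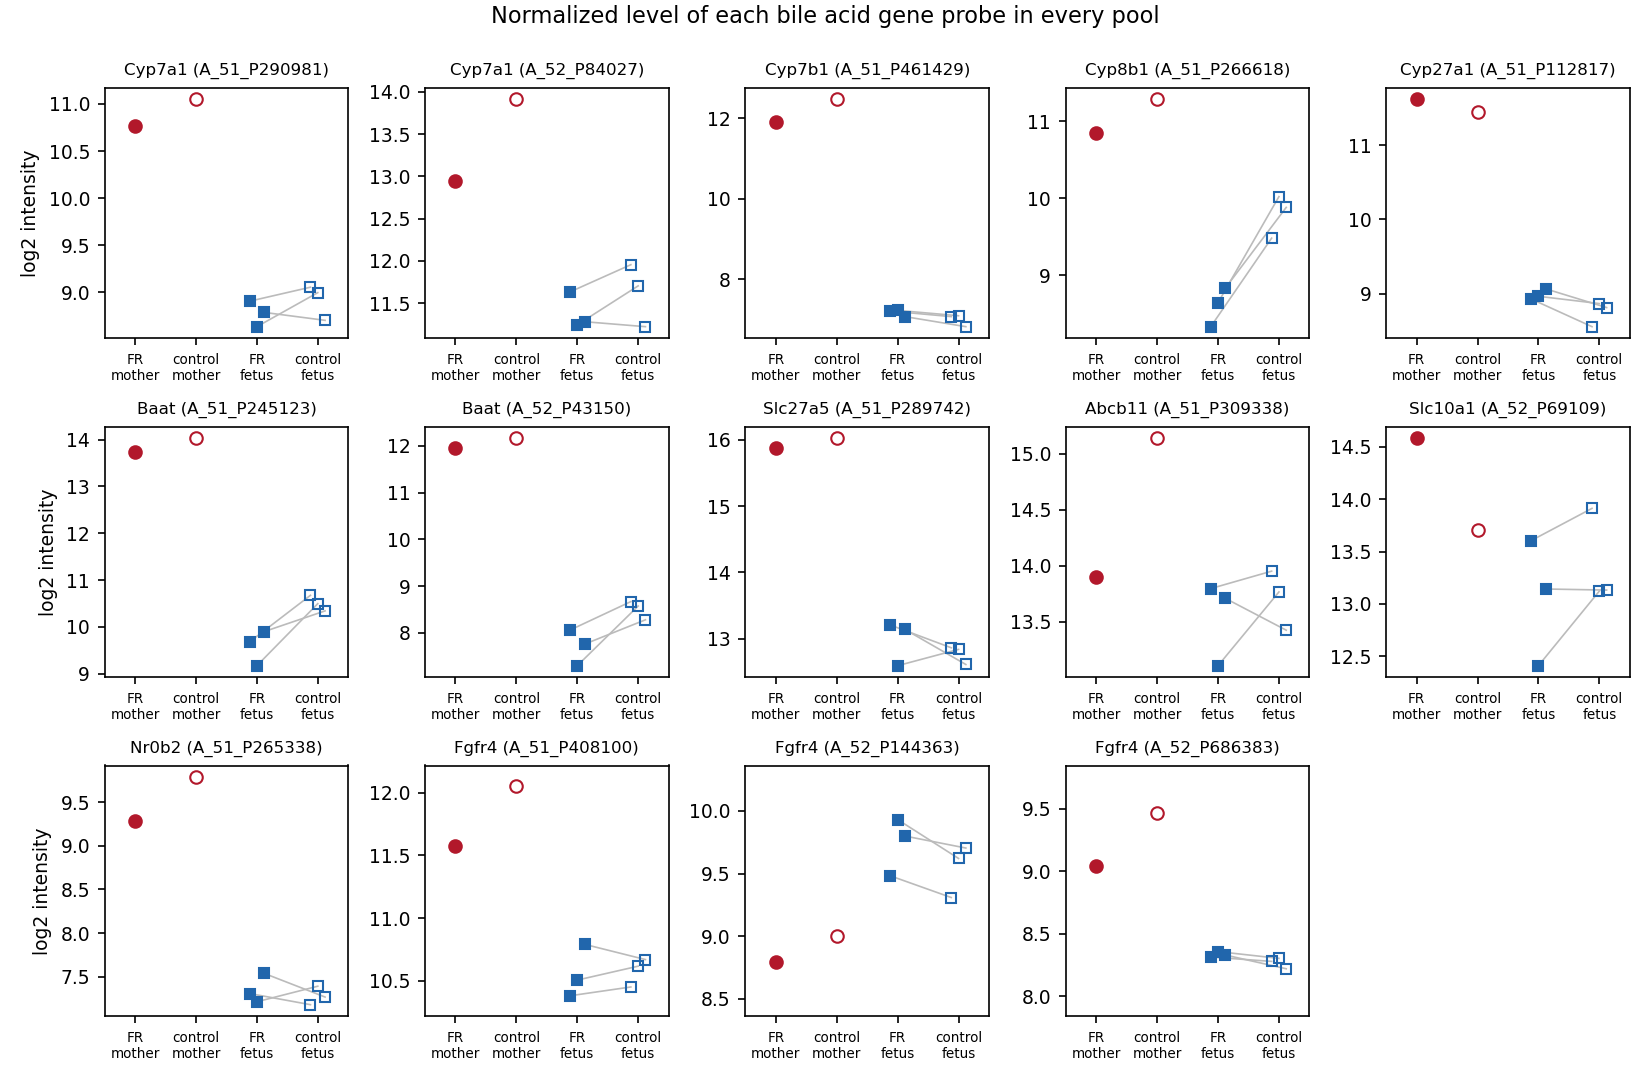
Normalized log2 intensity (y axis, scaled for each probe) in the FR and control pools of mothers (circles, 1 pool each) and fetuses (squares, 3 pools each); filled points are FR, open points control, and grey lines join the pools of 1 array pair. The fetal FR pools lie below the control pools for Cyp8b1 and both Baat probes, and the control maternal point lies above all control fetal ones for all probes but Slc10a1 and Fgfr4 A_52_P144363.

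Other genes of the pathway were read from the brightest probe of each. Their values, and those of the cell type markers below, were not checked under the alternatives used for the 14 probes. Over all probes, fetal calls numbered 7754 in the main run and 727 without the pools of 6. Among 13 other synthesis enzymes, 3 rose and 1 fell in fetal liver, where 10.5% of all probes rose and 13.7% fell, with a list median of 0.05. Cyp39a1, the 24-hydroxycholesterol 7-alpha-hydroxylase gene, had 1.75 and 2.43 on the maternal arrays, the one enzyme of the list past 2-fold there, and rose by 0.88 ± 0.38 in fetal liver (adjusted p = 0.0158). A second probe of Cyp39a1 had 1.29 and 2.01 in mothers and 0.76 in fetuses (adjusted p = 0.00942). The steroid 5-beta-reductase gene Akr1d1 rose by 0.51 ± 0.23 (adjusted p = 0.0200) and the racemase gene Amacr, needed to shorten the side chain, by 0.50 ± 0.25 (adjusted p = 0.0236). Hsd3b7, which acts directly after the 7-alpha-hydroxylases, had -0.92 and -1.19 in mothers and fell by 0.30 ± 0.17 in fetal liver (adjusted p = 0.0444).

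Of 13 other transport genes tested in fetal liver, 5 rose and 0 fell (list median 0.09), where 10.5% of all probes rose and 13.7% fell. They include both subunits of the basolateral bile acid exporter: Slc51b rose by 1.29 ± 0.54 (adjusted p = 0.0138) and Slc51a by 0.78 ± 0.43 (adjusted p = 0.0270). Slc51b had 8.48 as its mean level in FR fetal pools and 7.18 in control fetal pools. Slc51a had 7.64 and 6.86. The control signal of Slc51a was not well above background on every fetal array. On some arrays it therefore entered the test only through the FR channel, where it was higher. The sterol exporter gene Abcg5 rose by 0.66 ± 0.41 (adjusted p = 0.0369), and the basolateral export pump genes Abcc4 and Abcc3 by 0.43 ± 0.05 (adjusted p = 0.00745) and 0.24 ± 0.04 (adjusted p = 0.0214). Dimmer second probes had 0.03 for Abcc3 (adjusted p = 0.696) and 0.02 for Abcc4 (adjusted p = 0.807), and a second probe of Slc51a was not well above background. In mothers the organic anion carrier gene Slco1a4 was higher, at 1.56 and 1.32, as was Abcg5, at 1.16 and 1.79, while Slco1a1 was lower, at -1.29 and -1.30. Slco1b2, a hepatic uptake carrier gene, varied widely between the fetal pairs, at 0.09, -0.99 and 0.95.

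Of 18 receptors and regulators, 3 rose and 4 fell in fetal liver (list median 0.03), where 10.5% of all probes rose and 13.7% fell. The pregnane X receptor gene Nr1i2 rose by 0.71 ± 0.28 (adjusted p = 0.0136), the coactivator gene Ppargc1a by 0.61 ± 0.34 (adjusted p = 0.0283) and the transcription factor gene Cebpb by 0.29 ± 0.06 (adjusted p = 0.0167). The liver X receptor gene Nr1h3 fell by 0.64 ± 0.39 (adjusted p = 0.0361), Foxa2 by 0.62 ± 0.40 (adjusted p = 0.0399), Ppara by 0.40 ± 0.08 (adjusted p = 0.00986), and Nr5a2 as given with Cyp8b1. Mothers had Ppargc1a at 1.32 and 1.15 and Cebpb at 1.89 and 1.93, both past 2-fold. Klb, the gene of the FGFR4 partner beta-Klotho, had 0.82 and 0.46 in mothers and 0.19 ± 0.14 in fetuses (adjusted p = 0.0933). Of 4 measured genes of bile acid hydroxylation and sulfation, 2 rose in fetal liver, where 10.5% of all probes did. Cyp3a11 rose by 1.08 ± 0.78 (limma adjusted p = 0.0489) and Cyp2b10 by 0.50 ± 0.16 (adjusted p = 0.0122). The sulfotransferase gene Sult2a8 was lower in mothers, at -1.58 and -1.37. Both cytochrome genes may share signal with close relatives. Cyp2b10 was dim in fetal liver, with mean levels of 6.93 in FR and 6.43 in control pools. The second probe of Slc51a, well above background on 0 arrays, averaged 6.37. Cyp3a11 had 0.98 and -1.34 on the 2 maternal arrays, which oppose each other.

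**Figure D4:**
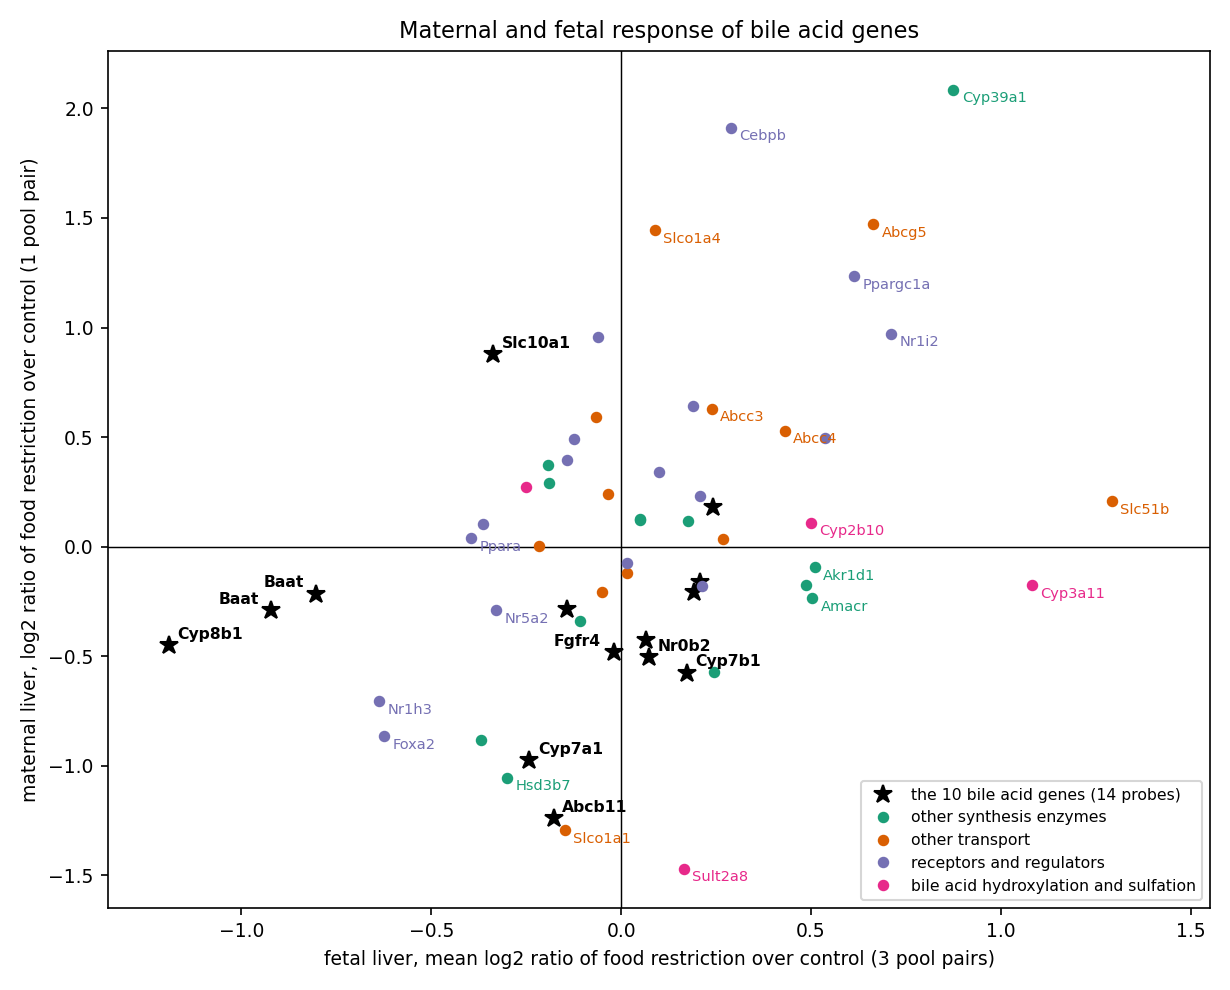
Maternal log2 ratio of food restriction over control (y axis, mean of 2 arrays of 1 pool pair) against the fetal one (x axis, mean of 3 pool pairs) for the 14 probes (stars) and the other pathway genes measured in both (dots by list). Named dots passed a threshold on either axis, and stars near the centre are left unnamed; Cyp8b1 and Baat lie at the left, Slc51b and Cyp3a11 at the right, and Cyp39a1 and Cebpb at the top.

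Some markers of liver cell types moved in the same fetal pools. Of all probes tested in fetal liver, 13.7% were lower and 10.5% higher. Of 5 hepatocyte markers measured, 4 fell: Ttr by 0.97 ± 0.39, Trf by 0.55 ± 0.37, Alb by 0.45 ± 0.15 and Afp by 0.35 ± 0.22 on the log2 scale, while Apoa1 had 0.31 ± 0.25 (adjusted p = 0.0805). The summed hepatocyte signal was 18.58 to 18.80 in FR fetal pools, against 18.93 to 19.08 in control fetal pools. The fall of Cyp8b1 was larger than that of each of these 4 markers in mean, and that of Baat lay within their range. Erythroid and other blood markers had 1 of 5 higher (Kit) and 1 lower (Ptprc), and their summed signal overlapped, at 17.26 to 17.62 in FR fetal pools, against 16.96 to 17.52 in control fetal pools. Of 5 bile duct markers 2 fell (Sox9 by 0.92 and Spp1 by 0.77), of 3 Kupffer cell markers 2 (Clec4f by 1.05 and Emr1 by 0.46), of 3 endothelial markers 1 (Stab2 by 0.25), and of 3 intestinal markers tested 1 (Vil1 by 1.04). The same Kupffer cell markers were more than 2-fold lower on both maternal arrays, Clec4f at -1.28 and -1.29 and Emr1 at -1.12 and -1.18. Of all probes measured in mothers, 1.01% were 2-fold lower on both arrays. In mothers the 2 arrays opposed each other for Alb, at 1.08 and -1.08, and the summed hepatocyte signal was 18.29 in the FR pool and 18.55 in the control pool. The part of these shifts in the values of Cyp8b1, Baat and Abcb11 was not tested.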

How the data were processed

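Liver RNA of pools (1000 ng each) was hybridised to 2-colour Agilent arrays, and the titles gave groups and dyes. Descriptions also mention rat hippocampus and name the swapped arrays Pool 2, and the titles were followed. Per the file headers, the deposited scanner files hold intensity values from Agilent Feature Extraction 9.5.3.1 (slide 1, also in the submitters' processing notes) and 11.0.1.1 (slide 2). The deposited ratios are log10 of Cy5 over Cy3, not turned for dye, and equal the log10 ratio of processed signals within 5e-08. The flags (other values of 0 or 1) came with the deposited files.

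With R 4.3.3, limma 3.58.1 and data.table (version 1.17.8), background was corrected by normexp (offset 50) on the mean spot signal of slide 1 and the median of slide 2, whose files lack the mean. Arrays were normalized by loess (control spots at weight 0), turned to FR over control as log2 ratios, and the 2 arrays of a pool pair averaged. The log2 levels came from single channels after Aquantile. Population outliers were left out. Non-uniform and saturated spots were kept. A probe entered if well above background in either channel on every array of a fit, or for levels in the control channel on all maternal or all fetal arrays. Fetal ratios were tested against 0, and mothers against fetuses by group means, with Benjamini-Hochberg adjustment over all probes. Mothers alone were described by a 2-fold mark on both arrays. The fits were tested on simulated data. Alternatives were flags, offset, loess, filter, scaling, slide, left-out pairs and the deposited ratios. Figures used matplotlib 3.10.9. Probe positions are those of the slide 1 files (mm9). All 10 genes are named with every probe; of the other pathway lists, those past a threshold and 6 fixed genes are, and of the marker lists, chosen after their values were seen, those that passed the fetal test. Members, lists and tests were chosen with earlier results of these data known.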

Additional observations from a re-analysis of the deposited data

Results flagged for a closer look

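Cyp7b1 was singled out because its response to FR differed between mothers and fetuses in a test of the difference itself. The maternal response minus the fetal one was -0.7493 on the log2 scale. Maternal arrays had -0.74 and -0.41, and the fetal pairs 0.14, 0.13 and 0.25, so the 2 stages lay on opposite sides of 0 there. Without loess the maternal arrays had 0.32 and -1.42, and in the deposited ratios -0.35 and -0.78. With slide as a term, which sets the mothers against the fetal pools of 6 on the same slide, the value was -0.71 (limma adjusted p = 0.250, against 0.0325 without the term, with a range of 0.0216 to 0.250 over the alternatives).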

How the results depend on the processing

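Calls among the 14 probes shifted with the processing, and the cause was not tested where the construction does not show it. With the non-uniform spots left out, fewer probes entered: 0 of 4 were past 2-fold in mothers, 0 of 4 differed in response between mothers and fetuses (3 unadjusted) and 3 of 4 differed in level. Without loess, 0 were past 2-fold in mothers and 0 differed in response (8 had an unadjusted limma p under 0.05). In the deposited ratios, 0 were past 2-fold in mothers and 3 differed in response (Cyp7b1, Cyp8b1 and Fgfr4). With the median spot signal on both slides, an alternative added after seeing the data, 5 were called in fetal liver. With slide as a term, 1 was called in fetal liver and 0 differed in response (4 unadjusted). Slide as a random block could not be fitted. Leaving out fetal pairs in turn gave 1 to 5 calls in fetal liver and 0 to 3 differences in response, with 1 and 0 without the pools of 6 (7 differences unadjusted), and 4 and 0 without the first pair of pools of 3 (11 unadjusted). Cyp8b1 was called in fetal liver in each of these settings. The share of all probes called in fetal liver moved too. It was 24.1% in the main run and 25.4% with the median signal. It was 2.23% without the pools of 6, and 10.8% and 21.4% without the first and second pair of pools of 3.

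Without loess the 2 maternal arrays opposed each other for all 14 probes. Signs of fitted values turned as follows. The difference in response of Cyp27a1 was 0.0251 without loess and 0.0231 with the median signal, and -0.1317 to 0.0058 with pairs left out. The fetal response of Fgfr4 (A_51_P408100) was 0.004 in the deposited ratios and -0.0906 to 0.0257 with pairs left out, that of Abcb11 -0.4071 to 0.0644 and that of Nr0b2 -0.0251 to 0.1994. The level difference of Slc10a1 was -0.205 with slide as a term. Over all probes, fetal calls numbered 7754, against 4680 without loess, 4067 without non-uniform spots, 3610 without the first pair of pools of 3, 3260 with slide as a term, and 727 without the pools of 6. Differences in response numbered 867, against 255 without non-uniform spots, 285 without loess, 2015 in the deposited ratios, and by limma 0 both with slide as a term (3334 unadjusted) and without the pools of 6 (4636 unadjusted). Probes past 2-fold in mothers numbered 577, against 351 without non-uniform spots, 182 without loess and 1332 in the deposited ratios. Level differences numbered 9814, against 4223 without non-uniform spots, 5911 without the first pools of 3 and 15659 without the pools of 6. No paired analysis was possible because the groups share fewer than 2 replicate numbers.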
